A study of Mus musculus with 13 samples.

Results

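The nuclear-encoded subunits of the oxidative phosphorylation complexes were described in mouse macrophages from sciatic nerve (4 libraries) and from optic nerve (4 libraries), and in brain microglia (5 libraries). Members were chosen by symbol alone: genes whose names begin with Nduf and a subunit letter, Sdha to Sdhd, Uqcr, Cox 4 to 8 followed by a subunit letter, or Atp5. Entries marked as pseudogenes and the Nduf assembly factors were left out. This gave 82 of the 48587 gene symbols counted: 37 of complex I, 4 of complex II, 8 of complex III, 16 of complex IV and 17 of complex V. The rule leaves out Cox4i1, Cyc1 and Ndufab1, which are subunits with other kinds of name. It takes in Atp5sl and Atp5s, which carry the ATP synthase prefix without being structural subunits. All mice were C57BL/6J, and total RNA was sequenced in bulk. The labels give no age, sex, cell number or sort gate, and do not say that libraries came from separate animals, so p-values measure the spread between these libraries, which may be technical. Of the columns of counts, 8 carry the initials of a nerve, and the other 5 carry a prefix that the labels do not explain. These 5 were taken as the 5 brain microglia samples by elimination, and every comparison with brain rests on that. Brain libraries are numbered here by those columns, not by labelled replicate. The sciatic nerve belongs to the peripheral nervous system, and the optic nerve and brain to the central nervous system.

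Oxidative phosphorylation takes place in the inner mitochondrial membrane. Complex I and complex II feed electrons from NADH and succinate to ubiquinone, complex III passes them to cytochrome c, and complex IV hands them to oxygen. Complexes I, III and IV pump protons, and complex V, the ATP synthase, lets them flow back to make ATP. All subunits of complex II and most of the others are encoded in the nucleus, and the remaining ones in mitochondrial DNA. In macrophages the balance of this pathway and glycolysis is known to shift with the activation state.

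Libraries held 10877914 to 23498764 counts. Levels are given as CPM, the count of a gene relative to the library size, scaled by TMM, a scaling that sets the bulk of genes level between libraries. Its factors were 0.827 to 0.887 in sciatic nerve, 0.908 to 1.03 in optic nerve and 1.12 to 1.22 in brain libraries. Brain libraries 1 and 2 stood apart from brain libraries 3, 4 and 5. Some results, but not all that may rest on them, are given with and without them. Summed markers of microglia were at 2772 to 3001 CPM in sciatic nerve libraries, 23230 to 26030 CPM in those of optic nerve and 26910 to 50780 CPM in brain libraries, over 7 of 7 genes. Summed markers of macrophages in general were at 8643 to 10630 CPM in sciatic nerve, 10830 to 12370 in optic nerve and 8766 to 19560 in brain libraries. The brain medians were 49660 and 18460 CPM, so the lowest brain library lay far below the median in each sum. Markers of other cells were lower. Schwann cell markers, summed over 5 of 5 genes, were at 1028 to 1178 CPM in sciatic nerve libraries, 521 to 737 CPM in those of optic nerve and 326 to 750 CPM in brain libraries, with Sox10 at 0 counts in sciatic nerve and Prx at 0 in the other tissues. Oligodendrocyte markers (6 of 6) were at 166 to 236 CPM in sciatic nerve libraries, 267 to 333 CPM in those of optic nerve and 123 to 178 CPM in brain libraries, and astrocyte markers (5 of 5) at 21.7 to 90.0 CPM in sciatic nerve, 80.02 to 104 in optic nerve and 183 to 246 in brain, with Aqp4 at 0 in sciatic nerve. Fibroblast markers (6 of 6) were at 26.6 to 153.5 CPM in sciatic nerve, with a median of 33.2 CPM, and at most 3.55 CPM elsewhere. Neuronal, endothelial and adipocyte markers stayed at or under 49.3 CPM in every library. In brain, the neuronal markers had a median of 2.95 CPM and reached 26.4 CPM. The part of these cells in the members' levels was not tested.

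On this scale the subunits as a group were higher in both kinds of nerve macrophage than in brain microglia, while with library size only the median change in sciatic nerve over brain was -0.00062 in log2. Their summed level was 7964 to 9552 CPM in sciatic nerve libraries, 7324 to 8868 CPM in those of optic nerve and 5083 to 7257 CPM in brain libraries. Every nerve library thus lay above every brain library, and the nerves overlapped each other. As a plain share of all counts, without TMM, the members took 0.691 to 0.788% in sciatic nerve, 0.752 to 0.852% in optic nerve and 0.571 to 0.883% in brain libraries. Those shares overlapped between all 3 tissues. In bulk RNA, fewer cells of a type and less RNA per cell cannot be told apart.

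**Figure D1:**
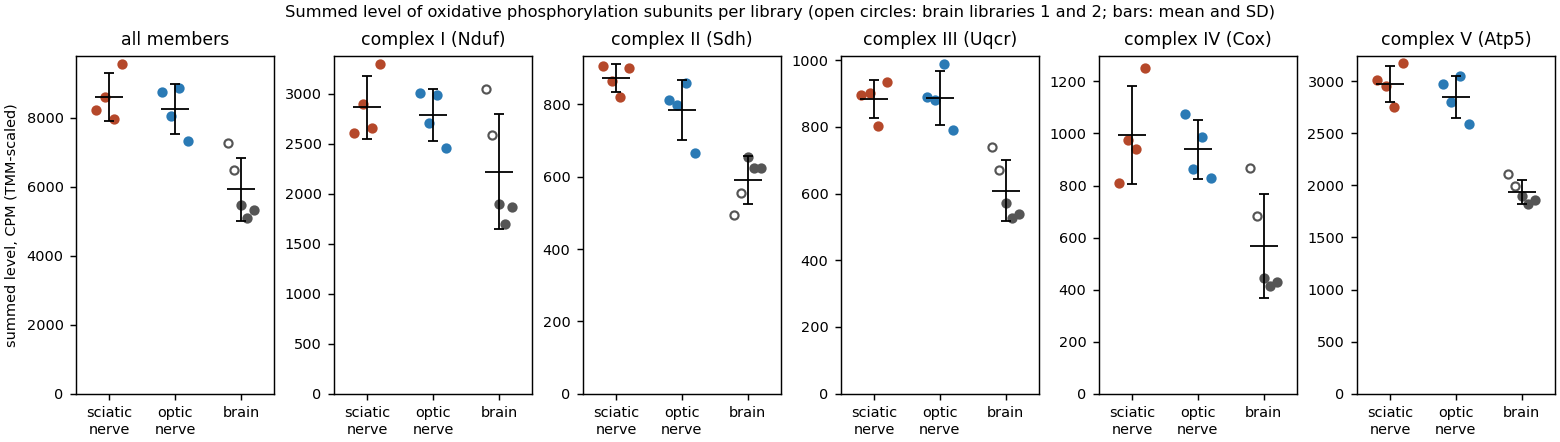
Summed level of the members per library (vertical axes, TMM-scaled CPM from 0) for all members and for each complex. Points are libraries of sciatic nerve, optic nerve and brain, open circles are brain libraries 1 and 2, and bars are the mean and SD; brain libraries 1 and 2 lie above the other brain libraries in all panels but complex II, where they lie below.

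Of the 82 members, 77 passed the filter on low counts and were tested among 13246 genes with edgeR's quasi-likelihood test and Benjamini-Hochberg adjustment over all genes tested. Genes with an adjusted p under 0.05 count as called. Between sciatic nerve and brain, 33 members were called higher in sciatic nerve, where 24.1% of all genes tested were, and 2 were called lower, where 24.3% of all genes were. The median log2 fold change over the members was 0.45, against -0.09 over all genes. Between optic nerve and brain, 24 members were called higher in optic nerve, against a background of 19.6%. No member was called lower, where 17.4% of all genes were; none had an unadjusted p under 0.05 in that direction, and DESeq2 also called 0. The median was 0.41, against -0.08 over all genes.

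These counts moved with the libraries left out and with the scaling. Without brain libraries 1 and 2, 61 members were called higher in sciatic nerve than in brain and 65 higher in optic nerve than in brain. Of all 13355 genes tested in that fit, 3666 and 3162 were called higher. Leaving out brain library 1 alone gave 53 and 42 members, and 3434 and 2879 of all 12980 genes tested. Without sciatic nerve library 4, 23 members were called higher in sciatic nerve than in brain, and 2905 of all 13745 genes tested. The 2 members called lower in sciatic nerve, Atp5sl and Cox6a2, became 1 without sciatic nerve library 1, 2 or 3, optic nerve library 2, or brain library 1 or 2. With libraries scaled by size only, 7 members were called higher and 6 lower in sciatic nerve relative to brain, and the members' median was -0.00062. Over all genes, that scaling gave 2242 called higher and 4942 lower, against 3191 and 3219 with TMM, and moved the median of all genes to -0.53. In optic nerve against brain it gave 4 members higher and a member median of 0.13, with the median of all genes at -0.33 and 1910 genes called higher and 3258 lower, against 2590 and 2303 with TMM. The distance between the members' median and that of all genes was 0.53 to 0.54 in sciatic nerve against brain under TMM, RLE, upper-quartile and size-only scaling. In optic nerve against brain it was 0.46 to 0.49 under the same scalings, which move all genes of a library nearly alike. With the trend on transcript length removed the distance was 0.22 and 0.19 in these comparisons, and without brain libraries 1 and 2 it was 0.81 and 0.70.

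**Figure D2:**
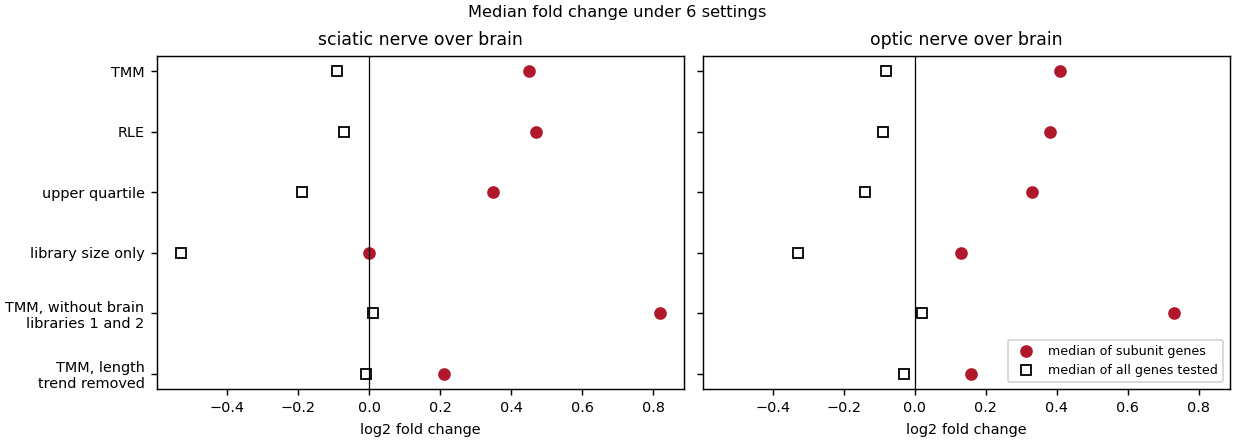
Median log2 fold change (horizontal axes) of the members and of all genes tested under 6 settings, for sciatic nerve over brain and optic nerve over brain. The members' median lies above that of all genes in every setting drawn, and its place relative to 0 moves with the scaling, to -0.00062 for sciatic nerve over brain with library size only.

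The comparisons of each nerve with brain share the brain libraries. In them, 18 members were called higher in both, which is 54.5% of the sciatic nerve list and 75% of the optic nerve list. They come from all complexes and include Ndufa7, Sdhb and Sdhd, Uqcrb, Uqcrc1, Uqcrfs1 and Uqcrh, Cox5a, Cox6a1, Cox6b1, Cox7a2 and Cox7b, and Atp5a1, Atp5b, Atp5c1, Atp5f1 and Atp5g3. Their log2 fold changes ran from 0.40 to 1.17 in sciatic nerve over brain and from 0.42 to 0.92 in optic nerve over brain. In 21 of the 33 members called for sciatic nerve, and in 12 of the 24 called for optic nerve, every nerve library lay above every brain library. Those members are 27.3% and 15.6% of the 77 tested, where 22.1% of all genes tested lay above every brain library in sciatic nerve and 17.4% in optic nerve, so the shares without overlap were near the background in both. Across the 23 settings tried, 7 members were called higher in sciatic nerve than in brain in each: Atp5b, Atp5c1, Cox5a, Cox6b1, Cox6b2, Cox7a1 and Cox7b. Of these, Cox6b2 and Cox7a1 were near 0 in most brain libraries and passed the filter on low counts through the nerve libraries. Their calls are therefore no support for a rise of the group. Atp5b, Cox6b1 and Uqcrc1 were called higher in optic nerve than in brain in each. Without sciatic nerve library 4 the sciatic nerve calls of Cox5b (0.76), Cox6c (0.78), Ndufb9 (0.42) and Ndufb11 (0.52) were lost.

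**Figure D3:**
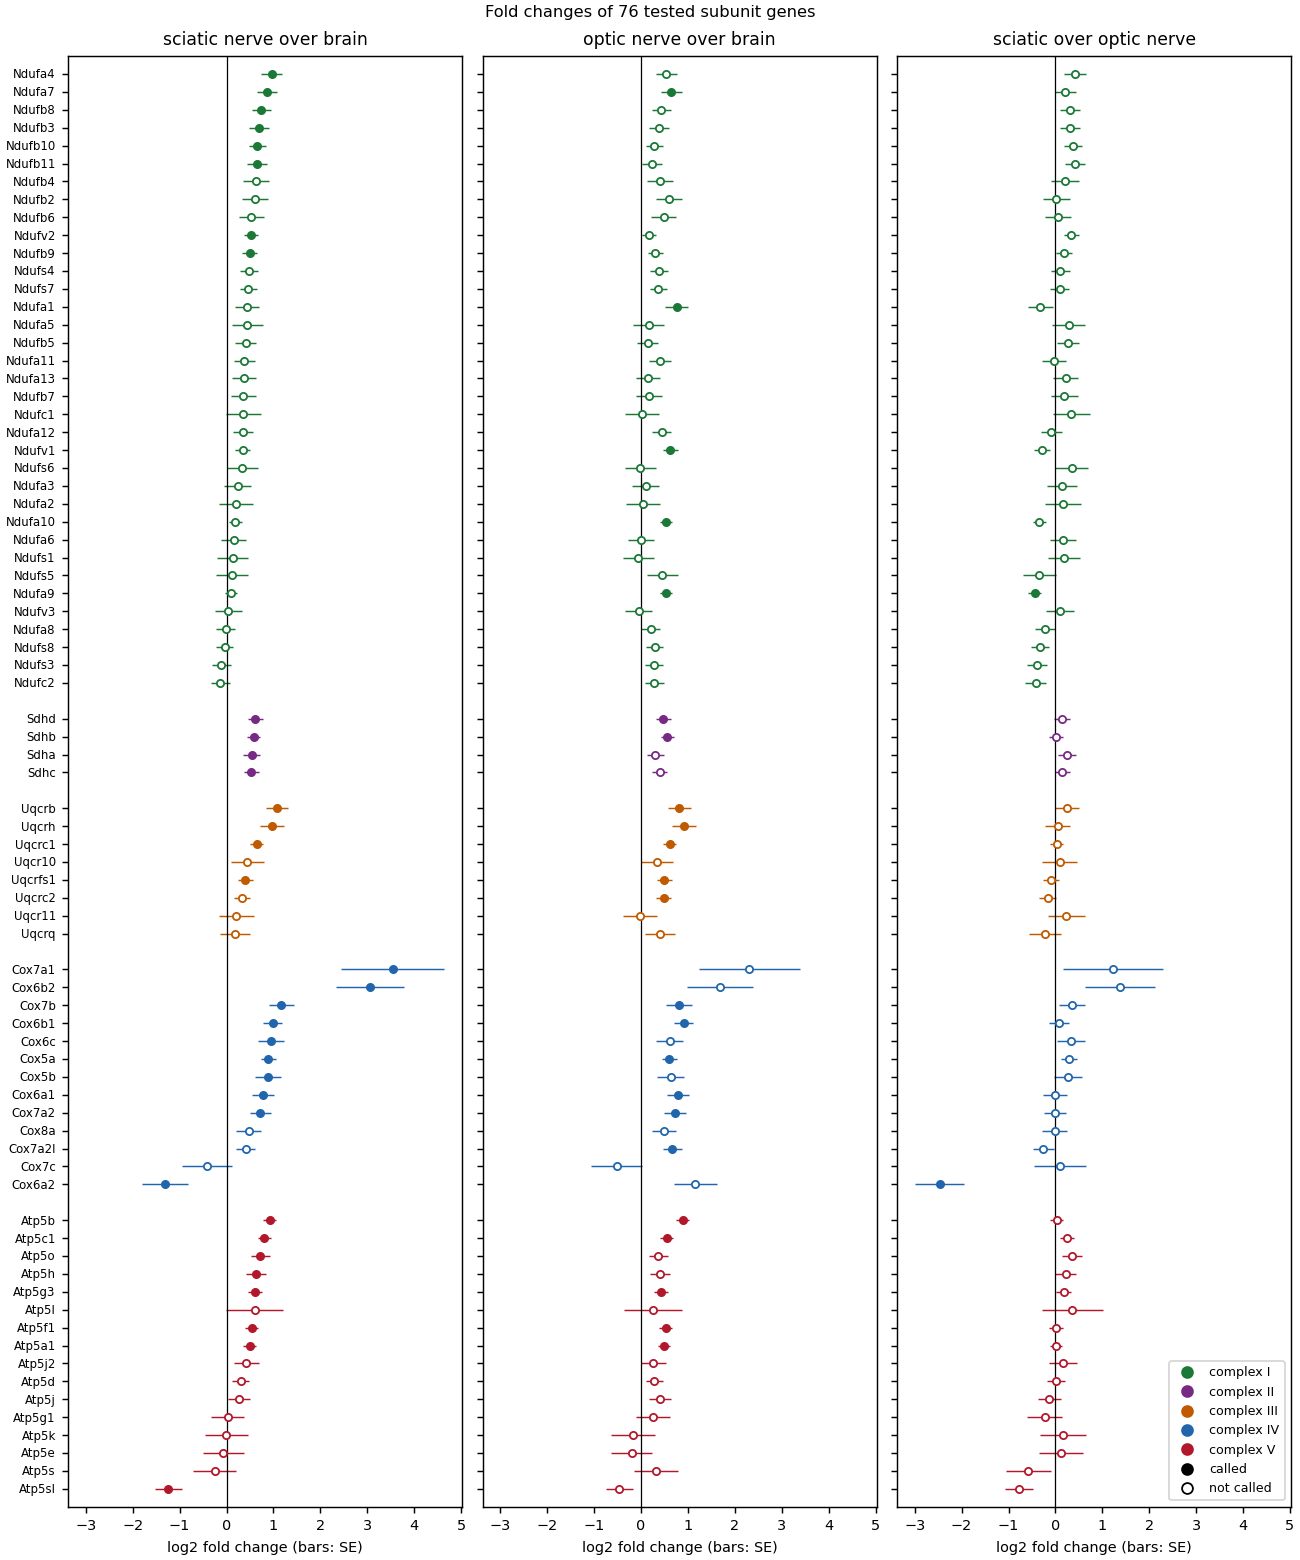
Log2 fold change with its SE (horizontal axes) of 76 tested members, grouped by complex and sorted by sciatic nerve over brain. Filled points were called at an adjusted p under 0.05; 32 points on the left and 23 in the middle are filled on the positive side, and on the right the 2 filled points, Cox6a2 and Ndufa9, are negative.

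Complex I, the NADH dehydrogenase, was the least called of the complexes. Of its 36 tested members 9 were called higher in sciatic nerve than in brain, with a median of 0.37, and 6 in optic nerve, with a median of 0.30. These are shares of 25% and 16.7%, near the 24.1% and 19.6% of all genes tested. Without brain library 1 these counts were 24 and 15, where 3434 and 2879 of all 12980 genes tested were called higher. Without brain libraries 1 and 2 they were 28 and 32, where 3666 and 3162 of all 13355 genes tested were. Its 7 nuclear core subunits carry the flavin and iron-sulphur clusters or line the quinone site.

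Ndufv1, which binds the flavin that takes electrons from NADH, was called in optic nerve against brain. It had 99.5, 73.4, 65.6 and 80.8 CPM in sciatic nerve, 89.1, 94.0, 116 and 88.2 CPM in optic nerve, and 66.2, 72.2, 62.7, 48.2 and 66.1 CPM in brain. All optic nerve libraries lay above all brain libraries (log2 fold change 0.62 ± 0.16, SE, edgeR adjusted p = 0.00899), while sciatic nerve overlapped brain (0.34 ± 0.17, adjusted p = 0.103). Ndufv2, a core subunit with an iron-sulphur cluster, was called in sciatic nerve, at 119 ± 21.2 CPM, against 83.1 ± 10.8 CPM in brain (SD, n = 4 and 5, edgeR adjusted p = 0.0104). Ndufs1, the largest core subunit, had 73.8, 76.5, 64.8 and 37.9 CPM in sciatic nerve and 70.6, 56.7, 51.5 and 43.5 CPM in optic nerve. In brain it had 33.2 and 25.6 CPM in libraries 1 and 2, and 73.5, 84.1 and 72.7 CPM in libraries 3, 4 and 5. It was not called in any comparison (log2 fold changes 0.13 ± 0.33, -0.06 ± 0.33 and 0.19 ± 0.34).

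Of the 29 accessory subunits tested, which surround the core, 7 were called higher in sciatic nerve than in brain and 4 in optic nerve. These shares are near the 24.1% of all genes tested in sciatic nerve and below the 19.6% in optic nerve. Ndufa4, counted here by its prefix although its protein is known to sit in complex IV, rose most in sciatic nerve. It had 123, 174, 164 and 228 CPM in sciatic nerve, 164, 129, 126 and 97.6 CPM in optic nerve, and 124, 109, 73.5, 66.6 and 70.1 CPM in brain. The lowest sciatic nerve library lay just under the highest brain library. The log2 fold change was 0.96 ± 0.23 in sciatic nerve over brain (edgeR adjusted p = 0.00295) and 0.54 ± 0.23 in optic nerve over brain (adjusted p = 0.0755). In optic nerve against brain the largest rise in complex I was that of Ndufa1, a small membrane-arm subunit, with 82.3, 65.4, 64.1 and 62.3 CPM in optic nerve and 63.2, 46.8, 36.0, 25.2 and 31.1 CPM in brain. The groups overlapped at 1 library each (0.76 ± 0.25, edgeR adjusted p = 0.0266). The call was lost without optic nerve library 1 (0.67) or brain library 3 (0.72), 4 (0.63) or 5 (0.68). Ndufa7, an accessory subunit called in both nerves, rose by 0.86 in sciatic nerve and 0.65 in optic nerve. Its optic nerve call was lost without optic nerve library 1 (0.62), 2 (0.66) or 3 (0.63), or brain library 3 (0.57), 4 (0.52) or 5 (0.60).

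Complex II, the succinate dehydrogenase, also serves the citric acid cycle. All 4 of its members were called higher in sciatic nerve than in brain, by 0.53 to 0.61 in log2. In optic nerve over brain all 4 were positive, at 0.30 to 0.56, and 2 of 4, Sdhb and Sdhd, were called. These are shares of 100% and 50%, against 24.1% and 19.6% of all genes tested. Sdha, the flavin subunit that oxidises succinate, had 381.5, 368, 373 and 371 CPM in sciatic nerve, 344, 341, 281 and 293 CPM in optic nerve, and 179, 180, 312, 310 and 300.2 CPM in brain. The sciatic nerve libraries lay above all others, with an SD of 5.71 CPM, and brain libraries 1 and 2 were the lowest. The change was 0.54 ± 0.18 in sciatic nerve over brain (edgeR adjusted p = 0.0225) and 0.30 ± 0.18 in optic nerve over brain (adjusted p = 0.217). Leaving out sciatic nerve library 4 ended the sciatic nerve call at 0.53, and left 2 of the 4 members of the complex called.

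Sdhb, the iron-sulphur subunit (chr4:140961203-140979193, plus strand), had 218, 213, 175 and 216 CPM in sciatic nerve, 202.5, 210.2, 233 and 163 CPM in optic nerve, and 137, 165, 135, 117 and 133 CPM in brain. Sciatic nerve libraries lay above all brain libraries, and the lowest optic nerve library lay just under the highest brain library. The log2 fold changes were 0.58 ± 0.14 in sciatic nerve (edgeR adjusted p = 0.00363) and 0.56 ± 0.14 in optic nerve (adjusted p = 0.007). Sdhc and Sdhd, the membrane anchors that bind ubiquinone, were at 102.5 ± 16.2 and 192 ± 18.6 CPM in sciatic nerve libraries, 93.3 ± 16.7 and 174 ± 43.2 CPM in those of optic nerve and 71.0 ± 5.95 and 126 ± 15.04 CPM in brain libraries. The call of Sdhc in sciatic nerve was lost without sciatic nerve library 4 (0.40). That of Sdhd in optic nerve (0.47 ± 0.16, edgeR adjusted p = 0.0372) was lost in 14 of 22 alternative settings, among them without sciatic nerve library 4 (0.45), optic nerve library 1 (0.50), 2 (0.50) or 3 (0.29), or brain library 1 (0.40), 3 (0.47), 4 (0.47) or 5 (0.46). The sum over complex II was 820 to 907 CPM in sciatic nerve, 665 to 859 CPM in optic nerve libraries, 493 and 554 CPM in brain libraries 1 and 2, and 624 to 655 CPM in brain libraries 3, 4 and 5.

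Complex III, the cytochrome bc1 complex, had 4 of 8 members called higher in sciatic nerve than in brain and 5 of 8 in optic nerve, with medians of 0.42 and 0.49. These are shares of 50% and 62.5%, against 24.1% and 19.6% of all genes tested. Without optic nerve library 3 the optic nerve count was 3. Uqcrc1, a core subunit on the matrix side (chr9:108936633-108949623, plus strand), had 370, 289, 271 and 280 CPM in sciatic nerve, 286, 303, 332 and 261 CPM in optic nerve, and 161, 200, 209.5, 197 and 203 CPM in brain. All nerve libraries lay above all brain libraries. The log2 fold changes were 0.64 ± 0.14 in sciatic nerve (edgeR adjusted p = 0.00125) and 0.61 ± 0.14 in optic nerve (adjusted p = 0.00305). Uqcrfs1, the Rieske iron-sulphur protein, was at 115 ± 14.8 CPM in sciatic nerve libraries, 123 ± 19.3 CPM in those of optic nerve and 87.0 ± 12.5 CPM in brain libraries, and the groups overlapped. Its rise of 0.40 in sciatic nerve (edgeR adjusted p = 0.044) was lost in 15 of 22 alternative settings and was -0.04 with library size only. Among them were the fits without sciatic nerve library 1 (0.39), 2 (0.35) or 4 (0.37), optic nerve library 2 (0.41) or 4 (0.41), and brain library 1 (0.38), 4 (0.36) or 5 (0.36). Its rise of 0.50 in optic nerve was lost without optic nerve library 3 (0.41) or brain library 4 (0.45) or 5 (0.46).

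The largest changes of complex III were in small subunits. Uqcrb, which helps hold the ubiquinone site, had 50.9, 63.6, 58.9 and 94.8 CPM in sciatic nerve and 73.3, 52.6, 58.3 and 42.1 CPM in optic nerve, and 43.7, 39.9, 27.3, 22.7 and 26.8 CPM in brain. The change was 1.07 ± 0.24 in sciatic nerve (edgeR adjusted p = 0.00219) and 0.82 ± 0.24 in optic nerve (adjusted p = 0.016), where the call was lost without optic nerve library 1 (0.68). Uqcrh, the acidic hinge protein near cytochrome c1, had 73.8, 108, 101 and 117 CPM in sciatic nerve and 116, 95.1, 89.4 and 84.4 CPM in optic nerve, and 83.4, 64.7, 37.0, 33.4 and 36.1 CPM in brain. Its changes were 0.97 ± 0.26 (edgeR adjusted p = 0.0064) and 0.92 ± 0.26 (adjusted p = 0.0127). Brain library 1 overlapped Uqcrh in sciatic nerve and Uqcrb in optic nerve, and otherwise neither nerve overlapped brain in these genes. Uqcrc2, the partner of Uqcrc1, was called in optic nerve, at 134 ± 23.0 CPM, against 96.1 ± 17.9 CPM in brain (0.48, edgeR adjusted p = 0.0335). That call was lost without optic nerve library 2 (0.52), 3 (0.37) or 4 (0.50), or brain library 2 (0.43).

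Complex IV, the cytochrome c oxidase, had the highest median fold change of the complexes in both comparisons with brain. Of 13 tested, 9 were called higher and 1 lower in sciatic nerve relative to brain, with a median of 0.89, and 6 were called higher in optic nerve, with a median of 0.73. The shares called higher were 69.2% and 46.2%, against 24.1% and 19.6% of all genes tested. Leaving out sciatic nerve library 4 brought the 9 to 5, and leaving out brain library 1 brought the 6 to 10. With library size only, the sciatic nerve median of complex IV was 0.42, while that of complex I was -0.09 and that of complex III -0.04. Cox5a, a nuclear subunit on the matrix side, had 53.9, 62.7, 54.5 and 73.5 CPM in sciatic nerve, 53.2, 48.4, 55.0 and 44.4 CPM in optic nerve, and 33.4, 39.1, 34.8, 28.2 and 29.9 CPM in brain. Neither nerve overlapped brain (0.89 ± 0.16, edgeR adjusted p = 3.07e-04 in sciatic nerve, and 0.60 ± 0.16, adjusted p = 0.00804 in optic nerve).

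Several subunits of complex IV come as pairs, in which one gene is used in most tissues and another mainly in heart and skeletal muscle or in testis. The widely used forms carried the level here. Cox6b1, at the contact between the units of the dimer, had 205, 264, 255 and 316 CPM in sciatic nerve, 293, 220.1, 278 and 199.6 CPM in optic nerve, and 170.4, 169.6, 108, 106 and 105 CPM in brain. All nerve libraries lay above all brain libraries (0.98 ± 0.20, edgeR adjusted p = 8.89e-04 in sciatic nerve; 0.91 ± 0.20, adjusted p = 0.00258 in optic nerve). Cox6a1, the general form of a regulatory subunit (chr5:115345642-115348981, minus strand), had 142, 163, 169 and 216 CPM in sciatic nerve, 189, 156, 179 and 169 CPM in optic nerve, and 169, 115, 75.7, 67.1 and 76.0 CPM in brain. Both nerves overlapped brain at brain library 1 (0.78 ± 0.24, adjusted p = 0.0148, and 0.79 ± 0.24, adjusted p = 0.0187), and the sciatic nerve call was lost without sciatic nerve library 4, at 0.64.

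Cox7b, which complex IV needs for its assembly, had 66.0, 80.9, 69.6 and 114 CPM in sciatic nerve, 83.1, 66.6, 61.1 and 47.7 CPM in optic nerve, and 61.9, 38.8, 29.6, 24.7 and 29.3 CPM in brain. Sciatic nerve lay above brain in every library (1.17 ± 0.27, edgeR adjusted p = 0.00223), and optic nerve overlapped brain library 1 (0.81 ± 0.27, adjusted p = 0.0268). The optic nerve call was lost without optic nerve library 1 (0.67) or 2 (0.81), or brain library 3 (0.74), 4 (0.69) or 5 (0.74). Cox7a2, the general form of Cox7a, was at 99.1 ± 25.1 CPM in sciatic nerve libraries, 99.9 ± 8.91 CPM in those of optic nerve and 60.4 ± 20.1 CPM in brain libraries, and was called higher in both nerves. Without sciatic nerve library 4 (0.51) the sciatic nerve call was lost, and without optic nerve library 1 (0.68) or brain library 4 (0.62) or 5 (0.63) the optic nerve call was. Cox7a2l, of the same family, was at 48.4 ± 2.72 CPM in sciatic nerve libraries, 57.8 ± 6.54 CPM in those of optic nerve and 36.5 ± 11.4 CPM in brain libraries. It was called in optic nerve against brain (0.67 ± 0.20, edgeR adjusted p = 0.019). That call was lost without optic nerve library 3 (0.60). Cox8a, the general form of Cox8, was at 116 ± 25.3 CPM in sciatic nerve libraries, 118 ± 11.5 CPM in those of optic nerve and 83.9 ± 37.0 CPM in brain libraries, and was not called. It was called in 2 of 22 alternatives, without brain library 1 and without brain libraries 1 and 2, in both nerves; without brain library 1 its change was 0.74 in sciatic nerve and 0.76 in optic nerve.

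The muscle and testis forms were low, and they include the widest spread of fold changes. Cox6a2, the heart and skeletal muscle form of Cox6a, had 1.57, 0.969, 0.720 and 2.00 CPM in sciatic nerve, 8.46, 8.34, 7.54 and 4.85 CPM in optic nerve, and 4.00, 5.45, 1.73, 2.42 and 2.76 CPM in brain. All sciatic nerve libraries lay below all optic nerve libraries (-2.47 ± 0.52, edgeR adjusted p = 0.0028), and this call held in all 23 settings. It was 1 of the 2 members called lower in sciatic nerve than in brain (-1.31 ± 0.49, adjusted p = 0.0372), a call lost in 10 of 22 alternative settings, among them without brain library 1 (-1.23), brain library 2 (-1.05), sciatic nerve library 1 (-1.40), 2 (-1.18) or 3 (-1.11), and optic nerve library 2 (-1.31). In optic nerve over brain it stood at 1.16 ± 0.46 (edgeR adjusted p = 0.0626), and it was called there in 3 of 22 alternatives: DESeq2, without brain library 2 (1.42) and without brain libraries 1 and 2.

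Cox7a1, the muscle form of Cox7a, had 1.64, 1.45, 1.51 and 2.87 CPM in sciatic nerve, 1.16, 0.861, 0.558 and 0.592 CPM in optic nerve, and 0.680, 0, 0.0466, 0 and 0.125 CPM in brain, where it rests on 13 counts in all. Sciatic nerve lay above both other tissues in every library, and it was called against brain (3.54 ± 1.10, edgeR adjusted p = 0.0154). Cox7a1 passed the filter on low counts through the nerve libraries alone, so its fold changes rest on a brain level near 0. Optic nerve over brain was not called (2.31), and was called in 2 of 22 alternatives, without brain library 1 (4.06) and without brain libraries 1 and 2. Cox6b2, the testis form of Cox6b, had 3.27, 3.94, 5.18 and 7.80 CPM in sciatic nerve, 2.42, 2.26, 2.46 and 0.592 CPM in optic nerve, and 0.151, 1.64, 0.606, 0.227 and 0.334 CPM in brain (3.06 ± 0.73, adjusted p = 0.00293 in sciatic nerve over brain). It also passed the filter through the nerve libraries. In optic nerve over brain it was not called (1.68), but it was in 4 of 22 alternatives: DESeq2, without optic nerve library 4 (1.98), without brain library 2 (2.51) and without brain libraries 1 and 2. Per kilobase of transcript these forms stayed far below their partners: in sciatic nerve Cox6b2 was at 11.6 ± 4.59 CPM per kb beside 535 ± 94.0 for Cox6b1, and Cox7a1 at 4.25 ± 1.53 beside 150.4 ± 38.1 for Cox7a2. Skeletal muscle markers, summed over 6 of 6 genes, were at 1.66 to 4.61 CPM in sciatic nerve libraries, 1.18 to 2.57 CPM in those of optic nerve and 0.0835 to 1.96 CPM in brain libraries. Myh4 and Myl1 had no counts in optic nerve, and Tnnt3 and Myl1 none in brain. Their part in the levels of Cox7a1 and Cox6a2 was not tested.

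Complex V, the ATP synthase, had 7 of 16 members called higher and 1 lower in sciatic nerve relative to brain, with a median of 0.46, and 5 called higher in optic nerve, with a median of 0.35. The shares called higher were 43.8% and 31.2%, against 24.1% and 19.6% of all genes tested. Without brain library 1 the optic nerve count was 8. The F1 head and central stalk, where ATP is made, had 3 of 5 genes called higher in each nerve, a count over few genes against the same background. Atp5b, the catalytic beta subunit (chr10:128083273-128090391, plus strand), had 1209, 1100, 1019 and 1020 CPM in sciatic nerve, 1055, 1068, 1173 and 958 CPM in optic nerve, and 452, 505, 658, 627 and 625.5 CPM in brain. The lowest nerve library lay well above the highest brain library. The log2 fold changes were 0.92 ± 0.14 in sciatic nerve (edgeR adjusted p = 5.92e-05) and 0.89 ± 0.14 in optic nerve (adjusted p = 1.56e-04). Per kilobase it had the highest level of all members in each tissue, at 567 ± 46.9 CPM per kb in sciatic nerve, 555 ± 45.8 in optic nerve and 299 ± 46.8 in brain.

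Atp5a1, the alpha subunit of the head, had 669, 588, 575.5 and 686 CPM in sciatic nerve, 632.5, 610.1, 653 and 611 CPM in optic nerve, and 354, 423, 488, 494 and 477 CPM in brain. Neither nerve overlapped brain, in which libraries 1 and 2 were the lowest (0.49 ± 0.13, edgeR adjusted p = 0.00492 in sciatic nerve, and 0.49 ± 0.13, adjusted p = 0.00785 in optic nerve). Atp5c1, the gamma subunit of the rotating stalk, was at 299.5 ± 32.6 CPM in sciatic nerve libraries, 252 ± 32.2 CPM in those of optic nerve and 172.5 ± 21.8 CPM in brain libraries and was called in both. Atp5e, the epsilon subunit and the shortest of the head genes, named after its values were seen, had 61.1, 80.3, 85.7 and 126 CPM in sciatic nerve and 93.5, 76.96, 86.6 and 67.1 CPM in optic nerve. In brain it had 229 and 106 CPM in libraries 1 and 2, and 40.4, 44.3 and 46.3 CPM in libraries 3, 4 and 5. Its groups overlapped and it was not called (-0.07 ± 0.44 and -0.20 ± 0.44), whereas without brain libraries 1 and 2 it rose in sciatic nerve (1.01, edgeR adjusted p = 0.0015) and in optic nerve (0.90, adjusted p = 0.00438).

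The peripheral stalk, which holds the head still, had 3 of 4 genes called higher in sciatic nerve than in brain (Atp5f1, Atp5h and Atp5o) and 1 of 4 in optic nerve (Atp5f1). Of all genes tested 24.1% and 19.6% were called higher, so the optic nerve count is near the background. The call of Atp5h (0.62) was lost without sciatic nerve library 4 (0.47) or brain library 3 (0.53), 4 (0.54) or 5 (0.56). Of the c ring genes, whose mature proteins are identical, Atp5g3 had the highest counted level, at 257 ± 29.0 CPM per kb in sciatic nerve, 226 ± 18.4 in optic nerve and 168.5 ± 31.1 in brain. Atp5g1 was at 2.01 ± 0.353 CPM per kb in sciatic nerve, 2.36 ± 0.377 in optic nerve and 1.99 ± 0.669 in brain, for a median transcript length of 2675.5 nt. Atp5g2 was nearly without counts, but only 12.6% of its 50-base stretches are unique, so its level is uncertain. Atp5g3 was called higher in sciatic nerve than in brain (0.61 ± 0.15, edgeR adjusted p = 0.00353) and in optic nerve (0.42 ± 0.15, adjusted p = 0.0369), where 13 of 22 alternative settings lost the call, among them without optic nerve library 1 (0.37), 2 (0.44) or 3 (0.44), or brain library 3 (0.38), 4 (0.36) or 5 (0.40). Atp5sl, which despite its name encodes a complex I assembly protein, was the other member called lower in sciatic nerve, with 9.61, 15.4, 11.7 and 6.80 CPM in sciatic nerve, 16.3, 17.7, 17.6 and 23.0 CPM in optic nerve, and 20.2, 39.4, 25.6, 17.2 and 25.9 CPM in brain. Sciatic nerve lay below brain in every library (-1.24 ± 0.29, adjusted p = 0.00266).

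**Figure D4:**
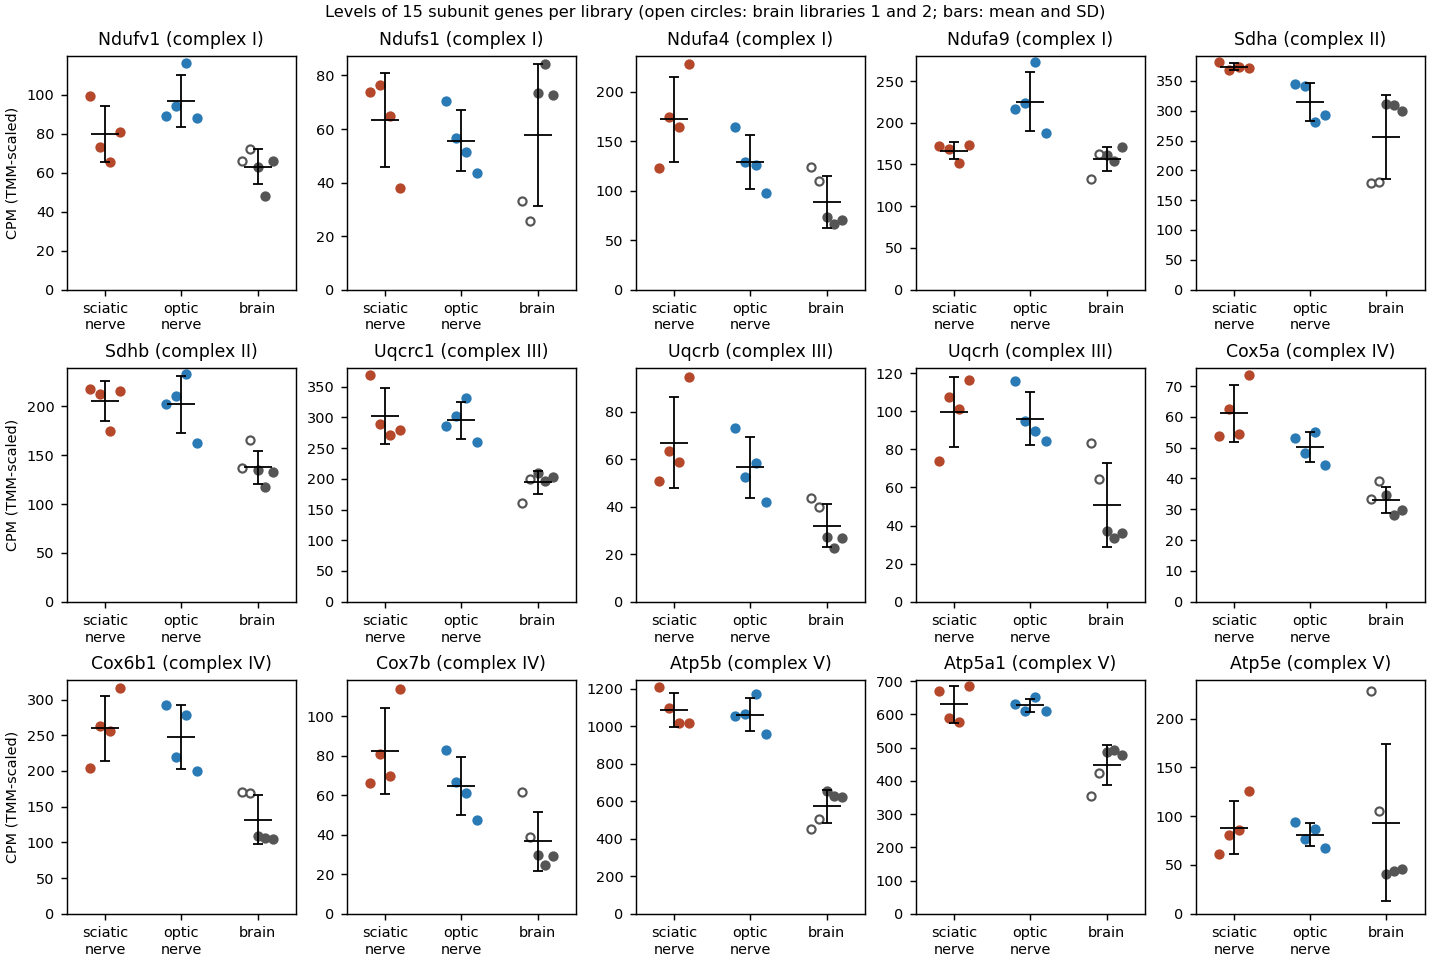
Level of 15 members per library (vertical axes, TMM-scaled CPM from 0) in sciatic nerve, optic nerve and brain, with the mean and SD; open circles are brain libraries 1 and 2. Atp5b lies at 958 to 1209 CPM in the nerves, above the 452 to 658 CPM of brain, while in Ndufs1 and Sdha brain libraries 1 and 2 are the lowest and in Atp5e the highest.

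The promoter windows of 4 of the 18 members called higher in both nerves are shown, 1 each from complexes II, III, IV and V. They were chosen after their values were seen and do not stand for the promoters of this group. The windows hold the 250 bases before and the first 50 bases of the annotated RNA start, and come from RefSeq on GRCm38.p6. Capitals mark matches, on either strand, to the core letters GCATGCGC for NRF1, CCGGAAG for ETS factors such as the GABP complex, and AAGATGGC for YY1, factors known to act on nuclear genes for mitochondrial proteins.
Sdhb, chr4:140961021-140961320, plus strand: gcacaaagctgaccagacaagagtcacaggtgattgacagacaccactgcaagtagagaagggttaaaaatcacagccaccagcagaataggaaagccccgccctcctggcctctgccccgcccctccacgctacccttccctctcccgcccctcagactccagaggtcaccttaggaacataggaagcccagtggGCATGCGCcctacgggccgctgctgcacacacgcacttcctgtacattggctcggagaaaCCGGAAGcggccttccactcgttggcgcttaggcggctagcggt
Uqcrc1, chr9:108936398-108936697, plus strand: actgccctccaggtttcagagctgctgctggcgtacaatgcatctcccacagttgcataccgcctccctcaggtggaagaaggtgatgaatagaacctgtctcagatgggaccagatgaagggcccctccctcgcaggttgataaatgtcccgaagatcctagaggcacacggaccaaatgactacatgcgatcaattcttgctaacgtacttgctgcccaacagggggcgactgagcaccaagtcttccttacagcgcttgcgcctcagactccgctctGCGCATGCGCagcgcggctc
Cox6a1, chr5:115348909-115349208, minus strand: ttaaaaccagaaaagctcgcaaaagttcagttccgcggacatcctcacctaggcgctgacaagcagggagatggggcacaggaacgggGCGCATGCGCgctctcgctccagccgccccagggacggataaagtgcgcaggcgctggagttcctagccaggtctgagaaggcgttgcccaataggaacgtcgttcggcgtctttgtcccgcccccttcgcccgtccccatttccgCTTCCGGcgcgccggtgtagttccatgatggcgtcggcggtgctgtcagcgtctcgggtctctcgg
Atp5b, chr10:128083057-128083356, plus strand: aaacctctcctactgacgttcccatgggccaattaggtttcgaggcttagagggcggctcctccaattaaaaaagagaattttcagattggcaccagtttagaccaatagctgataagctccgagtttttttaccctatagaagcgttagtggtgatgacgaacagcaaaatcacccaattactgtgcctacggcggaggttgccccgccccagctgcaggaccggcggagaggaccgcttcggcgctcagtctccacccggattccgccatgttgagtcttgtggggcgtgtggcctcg
In Sdhb the NRF1 letters begin 54 bases before the start and the ETS letters 6 bases after it. In Cox6a1 the NRF1 letters occur on both strands, overlapping, from 162 bases before the start, and the ETS letters from 16 bases before it. In Uqcrc1 the NRF1 letters occur on both strands, overlapping, from 30 bases after the start. The window of Atp5b, the gene with the smallest adjusted p of the members, holds none of the 3 motifs. Sdhb, Uqcrc1 and Cox6a1 are the only members of the list of 18 with the NRF1 letters in a window. The windows shown are therefore not typical of that list in this motif.

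A window was found for 69 of the 82 members. The NRF1 letters were in 10 of 69 (14.5%), against 824 of all 27025 genes with a window (3.05%). The ETS letters were in 16 of 69 (23.2%), against 9.93% of all genes, and the YY1 letters in 11 of 69 (15.9%), against 3.19%. The YY1 matches were in 7 of 32 windows of complex I and 4 of 16 of complex V. These are matches of letters and say nothing of factor binding in these cells.

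Brain libraries 1 and 2 differed from brain libraries 3, 4 and 5 mainly in the members with short transcripts. Of 50 tested members under 1000 nt, 47 were higher in both of these libraries than in any of the other brain libraries. Of 26 members of 1000 nt or more, 12 were higher in both and 6 were lower in both: Atp5a1, Atp5b, Atp5s, Ndufs1, Sdha and Uqcrc2. Relative to the mean of the 3 tissues, the median log2 level of the short members was 0.28 and 0.02 in brain libraries 1 and 2, and -0.67 to -0.83 in brain libraries 3, 4 and 5. The long members were at -0.17 to -0.44 in all 5 brain libraries, 0.03 to 0.24 in sciatic nerve and 0.01 to 0.34 in optic nerve, so that for them every nerve library lay above every brain library. All short genes tested, members or not, were at 0.22 and -0.01 in brain libraries 1 and 2 and at -0.44 to -0.49 in the others. Brain library 1 also had 3.79% of its counts on mitochondrially encoded genes, where brain libraries 2 to 5 had 0.410 to 0.868%, 0.690 to 1.24% in sciatic nerve and 0.447 to 0.827% in optic nerve. The part of transcript length or RNA quality in the members' differences was not tested.

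**Figure D5:**
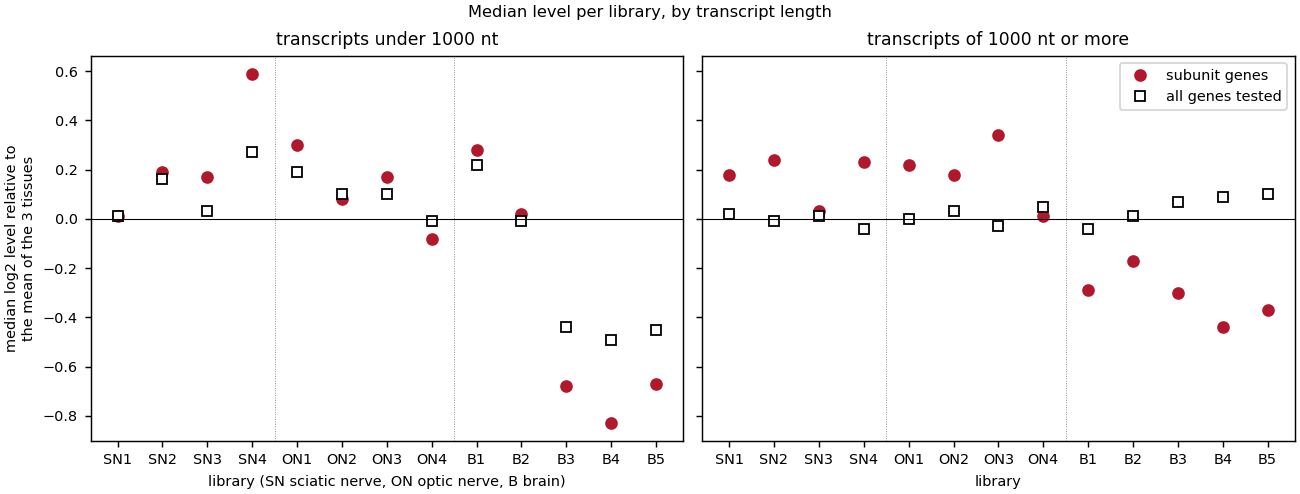
Median log2 level per library relative to the mean of the 3 tissues (vertical axes), for members and for all genes tested, split at a transcript length of 1000 nt. On the left the short members and all short genes drop together in brain libraries 3, 4 and 5, and on the right the long members lie below 0 in all 5 brain libraries while all long genes stay within -0.04 to 0.10 of it.

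Split by length, 14 of 26 long members were called higher in sciatic nerve than in brain and 15 of 26 in optic nerve, with medians of 0.48 and 0.49, against medians of -0.14 and -0.13 over all long genes. The called shares were 53.8% and 57.7%, against 23.4% and 19% of all long genes. Of 50 short members, 19 and 9 were called higher, with medians of 0.44 and 0.37, against 0.31 and 0.30 over all short genes. The called shares were 38% and 18%, where 29.8% and 24.7% of all short genes were called higher. In optic nerve the called share of the short members was thus below that of all short genes, while their median was not. Without brain library 1 the short counts were 36 and 24, without sciatic nerve library 4 the first was 12, and the second was 4 without optic nerve library 1 and 5 without brain library 4 or 5. With the trend on transcript length removed from each library, an alternative chosen after seeing the data, 26 members were called higher in sciatic nerve than in brain and 13 in optic nerve, with medians of 0.21 and 0.16. Without brain libraries 1 and 2, the long members' medians were 0.54 and 0.56, and 18 of 26 were called higher in each comparison.

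Between sciatic and optic nerve few members were called. None was called higher in sciatic nerve, where 10.9% of all genes tested were called; none had an unadjusted p under 0.05 in that direction, and DESeq2 called 0. Only Cox6a2 and Ndufa9 were called lower, where 10.9% of all genes were called as well, and 4 members had an unadjusted p under 0.05. The median over the members was 0.10 (0.00 over all genes), and -0.09 with library size only, where 1151 of all genes were called higher and 2063 lower, against 1447 and 1445 with TMM. Ndufa9, an accessory subunit at the joint of the arms of complex I, had 172, 169, 152 and 173 CPM in sciatic nerve, 217, 224, 273 and 188 CPM in optic nerve, and 133, 163, 161, 155 and 171 CPM in brain. Optic nerve lay above both other tissues in every library (sciatic over optic nerve -0.44 ± 0.14, edgeR adjusted p = 0.0369; optic nerve over brain 0.53 ± 0.13, adjusted p = 0.00649). The call between the nerves was lost without any 1 of the 4 sciatic nerve libraries and without optic nerve library 1, 2 or 3, at -0.34 to -0.46. For the comparisons with brain, 15 members were called for sciatic nerve but not optic nerve, and 6 for optic nerve but not sciatic nerve. Of these, Ndufa9 alone was called between the nerves.

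The remaining members, Cox7b2, Cox8b, Cox8c, Ndufa4l2 and Atp5g2, were not tested for lack of counts. Cox7b2 and Cox8c had 0 counts in all libraries, which allows up to 0.0511 CPM in sciatic nerve libraries, 0.0409 CPM in those of optic nerve and 0.0265 CPM in brain libraries (3 counts over the group, counting error only). Ndufa4l2, a form known from cells low in oxygen, had 1 count, in sciatic nerve. Cox8b, the muscle form of Cox8, had 2 counts, in optic nerve. Atp5g2 was at 0.284 ± 0.245 CPM in sciatic nerve libraries, 0.326 ± 0.0655 CPM in those of optic nerve and 0.374 ± 0.164 CPM in brain libraries. Many members have processed copies elsewhere in the genome. In the GENCODE vM21 transcripts 38 of 81 members had only unique 50-base stretches, 17 had under 80% unique, and Atp5l (15.2%) and Atp5g2 (12.6%) under 20%. Levels of these genes, and of Cox7c (47%), Uqcrb (56.6%) and Atp5f1 (61.3%), are uncertain, since no source used here gives the way reads with several matches were handled.

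The genes that work with these subunits did not all move with them. Their counts are read against the shares of all genes tested: 24.1% called higher and 24.3% lower in sciatic nerve relative to brain, and 19.6% and 17.4% in optic nerve. Of 13 mitochondrially encoded subunits 8 were tested, with medians of -0.30 in sciatic nerve over brain and -0.84 in optic nerve over brain. Of these 8, 1 was called, lower in each nerve: mt-Nd3, a core subunit of complex I. It had 0 counts in all 8 nerve libraries and 10.3, 2.31, 1.12, 1.63 and 1.80 CPM in brain, so that it passed the filter through brain alone and the call compares with a count of 0. The 5 mitochondrial genes not tested, mt-Nd4l, mt-Co2, mt-Co3, mt-Atp6 and mt-Atp8, were also at 0 or nearly 0, at no more than 0.138 CPM in any library, although every cell with active mitochondria uses them. For that reason no fold is given for mt-Nd3. Over the other 7 genes the medians were -0.25 in sciatic nerve over brain and -0.84 in optic nerve over brain. In each of these 7 genes brain library 1 was the highest of all libraries, and the medians include it. The share of counts on mitochondrially encoded genes was 3.79% in brain library 1 and 0.410 to 0.868% in brain libraries 2 to 5. In optic nerve it was 0.447 to 0.827%. Without brain library 1, 5 of the 8 were called higher in sciatic nerve than in brain. In optic nerve against brain 0 were called higher with any 1 library left out. The main catalytic subunit of complex IV, mt-Co1, was at 1531 ± 480.3 CPM in sciatic nerve libraries, 735.5 ± 201 CPM in those of optic nerve and 951 ± 955 CPM in brain libraries. Brain library 1 was at 2647 CPM, above the 429.5 to 703 CPM of the other brain libraries.

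Of 7 tested nuclear subunits and partners whose names fall outside the rule, 3 were called higher in sciatic nerve than in brain (Cox4i1, 2010107E04Rik and Atpif1, of which 2010107E04Rik rose most, by 1.11 ± 0.30) and 2 in optic nerve (Cox4i1 and Cyc1). Cyc1, the cytochrome c1 of complex III, lost that call (0.57) without optic nerve library 3 (0.42) or brain library 4 (0.48). Without brain library 1 the optic nerve count was 5. Cox4i1, the largest nuclear subunit of complex IV, was at 445 ± 49.0 CPM in sciatic nerve libraries, 430 ± 49.8 CPM in those of optic nerve and 247 ± 88.0 CPM in brain libraries (0.85 ± 0.21, edgeR adjusted p = 0.00391, and 0.80 ± 0.21, adjusted p = 0.00848). Of 41 assembly factors tested, which build the complexes without being part of them, 5 were called higher and 10 lower in sciatic nerve relative to brain, with a median of -0.10. In optic nerve against brain, 1 was called higher and 7 lower, with a median of -0.03. The shares called lower, 24.4% in sciatic nerve and 17.1% in optic nerve, were near those of all genes, and the shares called higher, 12.2% and 2.44%, were below them. Without sciatic nerve library 2 the 10 became 6. In optic nerve the 1 became 4 without brain library 1, 3 without brain library 2 and 2 without optic nerve library 2, and the 7 became 3 without optic nerve library 2 and 4 without optic nerve library 3. Cox14, needed for complex IV assembly, was at 69.9 ± 2.26 CPM in sciatic nerve libraries, 43.9 ± 7.49 CPM in those of optic nerve and 31.0 ± 9.78 CPM in brain libraries (1.18 ± 0.21, adjusted p = 3.23e-04 in sciatic nerve over brain). Timmdc1, needed for complex I assembly, was at 1.41 ± 0.945 CPM in sciatic nerve, against 5.12 ± 2.52 CPM in brain (-1.85 ± 0.60, edgeR adjusted p = 0.0191), a call lost without sciatic nerve library 2 (-1.56) or 4 (-1.68). Atpaf2, needed for the F1 head, was at 22.9 ± 2.87 CPM in optic nerve, against 11.7 ± 4.27 CPM in brain (0.97 ± 0.26, adjusted p = 0.00905). Sdhaf1, needed to build the iron-sulphur subunit of complex II, fell most in optic nerve over brain (-1.40 ± 0.51, edgeR adjusted p = 0.0414). That call was lost without optic nerve library 1 (-1.15), 2 (-1.51) or 4 (-1.36), or brain library 1 (-1.28) or 2 (-1.09).

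Among 15 genes of the citric acid cycle and pyruvate dehydrogenase, 7 were called higher in sciatic nerve than in brain and 6 in optic nerve, with medians of 0.40 and 0.43. Fh1, the fumarate hydratase, had 172, 148, 148.5 and 159.6 CPM in sciatic nerve, 37.9, 45.5, 56.1 and 66.7 CPM in optic nerve, and 34.8, 39.8, 53.5, 48.6 and 42.5 CPM in brain. Sciatic nerve lay above both other tissues, by 1.84 ± 0.18 over brain (edgeR adjusted p = 7.84e-07) and by 1.61 ± 0.19 over optic nerve (adjusted p = 1.83e-05). Pdha1, the alpha subunit of pyruvate dehydrogenase, rose most of the list in optic nerve, at 80.8 ± 4.57 CPM against 42.3 ± 11.9 CPM in brain (0.93 ± 0.20, adjusted p = 0.00198).

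The carriers that move phosphate, ADP and ATP gave 2 of 6 called higher in sciatic nerve than in brain and 4 of 6 in optic nerve. Slc25a3, the phosphate carrier, had 315, 352, 258.5 and 312 CPM in sciatic nerve, 232, 222, 237 and 194 CPM in optic nerve, and 135, 133, 129.5, 123 and 118 CPM in brain. The tissues did not overlap in any pair (1.28 ± 0.12 in sciatic nerve over brain, edgeR adjusted p = 7.08e-07; 0.79 ± 0.12 in optic nerve over brain, adjusted p = 1.75e-04; 0.48 ± 0.13 in sciatic over optic nerve, adjusted p = 0.0143). The call between the nerves was lost without sciatic nerve library 2 (0.42) or optic nerve library 4 (0.42). Slc25a5, an ADP and ATP carrier, rose most in optic nerve over brain, at 355 ± 53.5 CPM against 187 ± 21.3 CPM (0.92 ± 0.15, adjusted p = 2.66e-04).

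Of 11 tested regulators of mitochondrial biogenesis, 1 was called higher and 2 lower in each nerve against brain, which is 9.09% and 18.2%. Gabpa, the DNA-binding part of the GABP complex, was at 82.5 ± 16.6 CPM in sciatic nerve, against 46.8 ± 21.4 CPM in brain (0.82 ± 0.32, edgeR adjusted p = 0.0459). The call was lost in 16 of 22 alternative settings, among them without any 1 of the 4 sciatic nerve libraries, optic nerve library 2, 3 or 4, or brain library 1, 2 or 5, at 0.63 to 0.91. Its partner Gabpb1 had 45.2, 68.3, 75.5 and 70.9 CPM in sciatic nerve, 172, 159, 216 and 117 CPM in optic nerve, and 19.0, 34.8, 75.3, 76.9 and 76.8 CPM in brain, so that optic nerve lay above both other tissues (1.55 ± 0.34 over brain, edgeR adjusted p = 0.00297). Polrmt, the mitochondrial RNA polymerase, was at 4.84 ± 1.40 CPM in sciatic nerve libraries, 9.49 ± 4.72 CPM in those of optic nerve and 19.7 ± 7.89 CPM in brain libraries and fell in both nerves (-2.03 ± 0.41, adjusted p = 8.77e-04, and -1.06 ± 0.39, adjusted p = 0.0467). In optic nerve that call was lost in 12 of 22 alternative settings, among them without sciatic nerve library 1, 2 or 3, optic nerve library 1, 2 or 3, or brain library 1, 3 or 5, at -0.88 to -1.06. The other genes called lower, named after their values were seen, were Tfam in sciatic nerve and Nrf1 in optic nerve. Tfam, which packages and transcribes mitochondrial DNA, was at 18.8 ± 7.29 CPM in sciatic nerve libraries, 24.8 ± 6.72 CPM in those of optic nerve and 39.2 ± 7.08 CPM in brain libraries. It fell in sciatic nerve (-1.06 ± 0.29, edgeR adjusted p = 0.00742), while its change of -0.66 in optic nerve was not called (adjusted p = 0.0841), except in 5 of 22 alternatives, among them without sciatic nerve library 2 (-0.66) or brain library 1 (-0.77). Nrf1, the factor behind the NRF1 letters above, was at 44.8 ± 6.70 CPM in sciatic nerve libraries, 31.1 ± 6.44 CPM in those of optic nerve and 49.2 ± 4.51 CPM in brain libraries. It fell in optic nerve (-0.66 ± 0.18, edgeR adjusted p = 0.00923), while sciatic nerve stood at -0.14 (adjusted p = 0.547).

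Mitochondrial ribosomal proteins had medians of 0.03 in both comparisons with brain, with 11 of 76 called higher and 12 lower in sciatic nerve and 8 higher and 5 lower in optic nerve. These are 14.5% and 15.8% in sciatic nerve and 10.5% and 6.58% in optic nerve, below the shares of all genes. Without sciatic nerve library 4 the 11 became 7, and the 8 became 13 without brain library 1 and 5 without optic nerve library 2. Mrpl44, of the large subunit of that ribosome, fell most in both nerves (-2.37 ± 0.31 in sciatic nerve over brain, edgeR adjusted p = 1.97e-05, and -1.80 ± 0.30 in optic nerve over brain, adjusted p = 3.7e-04). Mrpl33 rose most in sciatic nerve over brain (1.94 ± 0.28, adjusted p = 5.52e-05) and Mrps6 in optic nerve over brain (1.33 ± 0.28, adjusted p = 0.00203). Cytosolic ribosomal proteins, most of them short genes as well, had medians of 0.58 and 0.64, with 20 and 19 of 85 called higher, which is 23.5% and 22.4% and near the shares of all genes. Without brain library 1 these counts were 42 and 53, and without brain library 3 or 5 the first was 13. Rpl10 rose most in both, by 1.72 ± 0.39 in sciatic nerve over brain (edgeR adjusted p = 0.00218) and 1.99 ± 0.39 in optic nerve over brain (adjusted p = 0.00129). Rps4l was the 1 called lower in sciatic nerve than in brain (-0.59 ± 0.21, adjusted p = 0.0325), a call lost without sciatic nerve library 3 (-0.55) or 4 (-0.51), or brain library 2 (-0.43) or 5 (-0.58).

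In sciatic over optic nerve, the companion genes gave calls in both directions, where 10.9% of all genes were called in each. The shares called were at or below that for assembly factors (4.88% higher, 9.76% lower), for mitochondrial ribosomal proteins (2.63% higher, 7.89% lower) and for cytosolic ribosomal proteins (1.18% lower). Of the 6 carriers and channels, 1 was called higher and 3 lower in sciatic nerve, and Vdac2, a channel of the outer mitochondrial membrane, fell most (-0.77 ± 0.16, edgeR adjusted p = 0.00198). The 1 became 0 without sciatic nerve library 2 or optic nerve library 4. Of 41 assembly factors, 2 were called higher and 4 lower. Cox14 rose most (0.67 ± 0.22, edgeR adjusted p = 0.0426), and the call was lost without any 1 of the 4 sciatic nerve libraries or optic nerve library 1, 2 or 4, at 0.59 to 0.70. Bcs1l, which inserts the Rieske protein into complex III, fell most (-1.18 ± 0.34, edgeR adjusted p = 0.0228). Its call was lost without sciatic nerve library 1 (-1.12), 2 (-1.07) or 3 (-1.11), or optic nerve library 1 (-1.09) or 3 (-0.94). Gabpb1 was the 1 called regulator (-1.35 ± 0.37, edgeR adjusted p = 0.0155), and was lost without sciatic nerve library 1 (-1.21). Of the mitochondrial ribosomal proteins 2 were called higher and 6 lower. Mrps25 rose most (0.94 ± 0.20, edgeR adjusted p = 0.00242). Mrps34 fell most (-1.38 ± 0.45, adjusted p = 0.0399), and its call was lost without sciatic nerve library 2, 3 or 4, optic nerve library 2, 3 or 4, or brain library 3, at -1.14 to -1.44. Rps4l was the 1 called cytosolic ribosomal protein (-0.91 ± 0.22, edgeR adjusted p = 0.00833). With brain library 1 left out there were 4 such calls, and with brain library 2 left out 2. Leaving out 1 library at a time gave 0 to 2 assembly factors higher and 1 to 4 lower, and 1 to 4 mitochondrial ribosomal proteins higher and 1 to 9 lower.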

How the data were processed

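Total RNA of macrophages from sciatic nerve (4 libraries), optic nerve (4) and brain (5) was sequenced in bulk. The authors deposited whole-number read counts per gene symbol, made with STAR and featureCounts 1.5.1 on mm10 (per the submitters' processing notes). For STAR no version was given in the sources used here, nor was the annotation, the strand setting or the handling of reads with several matches. Libraries held 10877914 to 23498764 counts, and the number of libraries limits the precision of every comparison. No column of values was left unused (0). The 5 brain columns carry a prefix that the labels do not explain and were assigned to brain by elimination.

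The counts were tested with edgeR 4.0.16 in R 4.3.3 (limma 3.58.1) with filterByExpr, TMM scaling, 1 fit over all 13 libraries with tissue as the only term, and p-values adjusted by Benjamini-Hochberg over 13246 genes. The standard error is the log2 fold change over the square root of F. Levels are CPM on the TMM-scaled library size. CPM per kb uses the median length of the basic protein-coding transcripts of GENCODE vM21. Log2 levels per library use a pseudocount of 0.5 CPM. The procedure was tried on simulated counts in which a small set of genes changed, equally up and down. That trial held no shift of most genes and no trend on transcript length, so it does not bear on either. Tables were made with Python 3.11.15 and pandas 2.3.3.

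Named for each comparison were the called member of each complex with the largest rise and the largest fall. Named in all were the core members Ndufs1, Ndufv1, Sdha, Sdhb, Uqcrc1, Uqcrfs1, Cox5a, Atp5a1 and Atp5b, the isoform families of Cox6a, Cox6b, Cox7a, Cox7b, Cox8, Atp5g and Ndufa4, and the called gene of each companion list with the largest rise and fall. Of the core members fixed for naming, 1 is not reported here. The other members named were chosen after their values were seen. Members and lists were chosen with earlier results of these data known.

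The alternatives were RLE, upper-quartile and size-only scaling, DESeq2 1.42.0, no filter, a replicate block, a fit of only the tissues compared, each library left out in turn, brain libraries 1 and 2 left out, and removal of a lowess trend (span 0.3) on transcript length. The last was chosen after seeing the data.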

Additional observations from a re-analysis of the deposited data

Results flagged for a closer look

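Of 108 groups of libraries looked at, over the named members, the summed levels and the shares of counts, 8 held a library set apart from its group by Dixon's criterion, where chance gives about 1 in 20. Cox6b2 was at 0.592 CPM in optic nerve library 4, against 2.26 to 2.46 CPM in the other optic nerve libraries. Cox7a1 was at 2.87 CPM in sciatic nerve library 4, against 1.45 to 1.64 CPM in the other sciatic nerve libraries, and at 0.680 CPM in brain library 1, against 0 to 0.125 CPM in the other brain libraries. Cox7a2l was at 44.3 CPM in sciatic nerve library 3, against 49.2 to 50.02 CPM in the others. Ndufa1 was at 82.3 CPM in optic nerve library 1, against 62.3 to 65.4 CPM in the others. Sdhb was at 175 CPM in sciatic nerve library 3, against 213 to 218 CPM in the others. Uqcrc1 was at 161 CPM in brain library 1, against 197 to 209.5 CPM in the others. The share of counts on mitochondrially encoded genes was 3.79% in brain library 1, against 0.410 to 0.868% in the other brain libraries.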

How the results depend on the processing

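Counts of called members are given as higher and lower. For sciatic nerve over brain, library size only gave 7 and 6 with a median of -0.00062, leaving out brain libraries 1 and 2 gave 61 and 1 with a median of 0.82, and the lower count was 1 with no filter and with only the 2 tissues in the fit. For optic nerve over brain, library size only gave 4 higher with a median of 0.13, leaving out brain libraries 1 and 2 gave 65 with a median of 0.73, and removing the length trend gave 13. For sciatic over optic nerve, the lower count was 1 with RLE factors, no filter or the length trend removed, 4 with library size only (median -0.09) and 5 without brain libraries 1 and 2, and the length trend removed gave 2 higher. DESeq2 gave 36 and 2 for sciatic nerve over brain, 26 and 0 for optic nerve over brain, and 0 and 2 between the nerves. The cause of these shifts was not tested.

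Leaving out 1 library at a time gave 23 to 53 higher, 1 to 2 lower and medians of 0.34 to 0.62 for sciatic nerve over brain. It gave 17 to 42 higher, 0 to 0 lower and medians of 0.33 to 0.54 for optic nerve over brain. Between the nerves it gave 0 to 0 higher, 1 to 2 lower and medians of 0.01 to 0.17.

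With the replicate number as a block, the calls were 31 and 1 for sciatic nerve over brain, 17 and 0 for optic nerve over brain and 0 and 1 between the nerves. The numbers of the brain columns cannot be tied to labelled replicates, so the brain libraries have none in the block. Same-numbered sciatic and optic nerve libraries had correlations of deviations of -0.0741 to 0.0211, none over 0.1. This cannot tell whether they share animals or a batch, since libraries of different tissues from 1 animal need not deviate alike. The labels give no pairing, and none is assumed.

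Among the genes named, 3 changed sign with a call on 1 side: Uqcrfs1 in sciatic nerve over brain with library size only (-0.04), and Atp5e without brain libraries 1 and 2 in sciatic nerve over brain (1.01) and optic nerve over brain (0.90). A wider set of 147 pairs of a gene and a comparison took in the named genes and also every called member. Of its 97 calls, 53 were lost with library size only, 22 with the length trend removed, 15 with no filter, 15 with the replicate block and 2 with RLE factors.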
